A study of Mus musculus with 10 samples.

Results

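Integrins are surface receptors for the matrix around a cell, and neuropilins are surface co-receptors for guidance and growth factors. Sites of the aryl hydrocarbon receptor (AHR), a ligand-activated transcription factor, were described here at 10 of these genes: 5 integrin alpha subunits (Itga1, Itga2, Itga3, Itga6 and Itgav), 3 beta subunits (Itgb1, Itgb4 and Itgb6) and both neuropilins (Nrp1 and Nrp2). The members were listed by name, and a peak was counted for a gene when it overlapped the gene body or 10 kb on either side. By this rule 68 of the 123652 peaks of the wild type list (0.0550%) and 2 of the 1931 peaks of the AHR knockout (KO) list lay at the members.

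The peaks came from chromatin immunoprecipitation and sequencing (ChIP-seq) with an anti-AHR antibody on mouse colon organoids, epithelial cultures grown from crypts, which were kept in WENR medium (Wnt3a, EGF, Noggin and R-spondin, with small-molecule inhibitors of p38 and ALK5 and nicotinamide). Wild type organoids gave 4 AHR ChIP and 4 input libraries, and AHR KO organoids gave 1 ChIP and 1 input library, where input is sheared chromatin without antibody. All libraries, those of the KO included, came from organoids given 5 nM of the AHR ligand FICZ for 1 h, and there was no group without FICZ. The study's methods describe the KO as VilCre Ahr fl/fl, in which the villin promoter drives Cre in the intestinal epithelium, with wild type littermates on a C57BL/6 background. The labels give neither this genotype nor the number of KO cultures in the single KO libraries, whereas the methods speak of several biological replicates of each genotype, so whether the KO libraries are pools of cultures is not known here. Each genotype had 1 peak list, the wild type list covering all 4 cultures together, so no value per culture and no test between genotypes was possible, and since peak lists hold no expression, the labelled tissue could not be checked against its markers.

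Integrins are pairs of an alpha and a beta subunit that bind matrix proteins outside the cell and connect them to the cytoskeleton. The alpha 1 and alpha 2 subunits pair with beta 1 as collagen receptors, while alpha 3 and alpha 6 form laminin receptors, alpha 6 with beta 4 being the pair found in hemidesmosomes. The alpha v beta 6 receptor is an epithelial integrin that activates latent TGF-beta, and neuropilins are co-receptors for class 3 semaphorins and for VEGF. When a ligand is bound, AHR enters the nucleus and pairs with ARNT on DNA that holds the core GCGTG, often within TNGCGTG. TEAD factors, the DNA-binding partners of the mechanosensitive co-activators YAP and TAZ, recognise GGAATG. The study gives Itga2, Nrp2 and Sox9 as examples of genes near differentially accessible regions that held both AHR and TEAD motifs. Those motifs were searched over whole accessible regions. Here all of these words were counted exactly, on both strands, each time in a window of 200 bp centred on the peak. The measures are unlike, so the counts here are no check of those regions. TNGCGTG contains GCGTG, so each TNGCGTG was also counted as a core.

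The sequences that carry the description are shown first for Itga2 and Nrp2, since they show which DNA the antibody signal lay on. They are from the plus strand of GRCm38 (mm10), with copies of the AHR core, or of the whole TNGCGTG where it was present, and of GGAATG in capitals on either strand. The windows are the highest-scoring Itga2 peak, which was also found in the AHR KO (chr13:114910586-114910785), the Itga2 peak next to the gene start (chr13:114931588-114931787), the Itga2 peak with TNGCGTG (chr13:114841984-114842183) and the highest-scoring Nrp2 peak (chr1:62726860-62727059).
Itga2 peak 4: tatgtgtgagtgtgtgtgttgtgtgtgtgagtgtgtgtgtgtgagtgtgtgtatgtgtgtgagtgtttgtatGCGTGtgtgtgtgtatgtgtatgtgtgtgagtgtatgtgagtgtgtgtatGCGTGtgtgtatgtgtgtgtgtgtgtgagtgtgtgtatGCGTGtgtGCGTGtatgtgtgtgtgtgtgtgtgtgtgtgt
Itga2 peak 1: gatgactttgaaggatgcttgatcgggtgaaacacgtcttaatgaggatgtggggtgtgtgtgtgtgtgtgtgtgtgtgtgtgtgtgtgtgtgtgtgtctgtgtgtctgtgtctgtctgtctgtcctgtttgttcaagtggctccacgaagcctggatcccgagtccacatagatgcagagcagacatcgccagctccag
Itga2 peak 11: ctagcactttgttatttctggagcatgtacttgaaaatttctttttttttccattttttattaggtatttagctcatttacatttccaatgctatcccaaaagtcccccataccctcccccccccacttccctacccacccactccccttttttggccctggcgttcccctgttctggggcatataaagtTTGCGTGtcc
Nrp2 peak 3: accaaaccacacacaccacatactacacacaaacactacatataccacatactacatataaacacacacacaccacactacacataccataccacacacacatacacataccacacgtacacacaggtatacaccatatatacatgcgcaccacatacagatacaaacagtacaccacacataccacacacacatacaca
The first window was a TG repeat in which all 4 AHR cores lay inside the repeat, the second held a shorter TG repeat next to unmasked sequence with no AHR core, the third had TNGCGTG near its edge and no TG repeat, and the fourth was a CA-rich stretch without any of the words.

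Of the 68 peaks, 57 (83.8%) had their midpoint inside the gene, where gene body made up 82.5% of the stretches searched, against 77.0% of the wild type peaks at protein-coding genes. There were 46 peaks in an intron of the gene's main transcript, 9 in an intron of another transcript, 2 in a 3′ UTR, 4 upstream and 7 downstream. The median distance from a peak midpoint to the nearest transcript start of the same gene was 16.2 kb, and 2 of 68 peaks (Itga2 peak 1 and Itgb4 peak 2) lay within 1 kb of one, against 5.53% of the wild type peaks at protein-coding genes. None of the 10 RefSeq promoters of the members (GRCm38.p6, the stretch just before and across the start, for 8 of the 10 genes) overlapped a wild type peak, as 0.962% of all 32851 promoters did. TNGCGTG was in the promoter of Nrp2 alone (5.07% of all promoters), the core was in those of Itga2, Nrp1 and Nrp2 (32.4%), and GGAATG was in that of Itgb1 (14.7%).

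**Figure D1:**
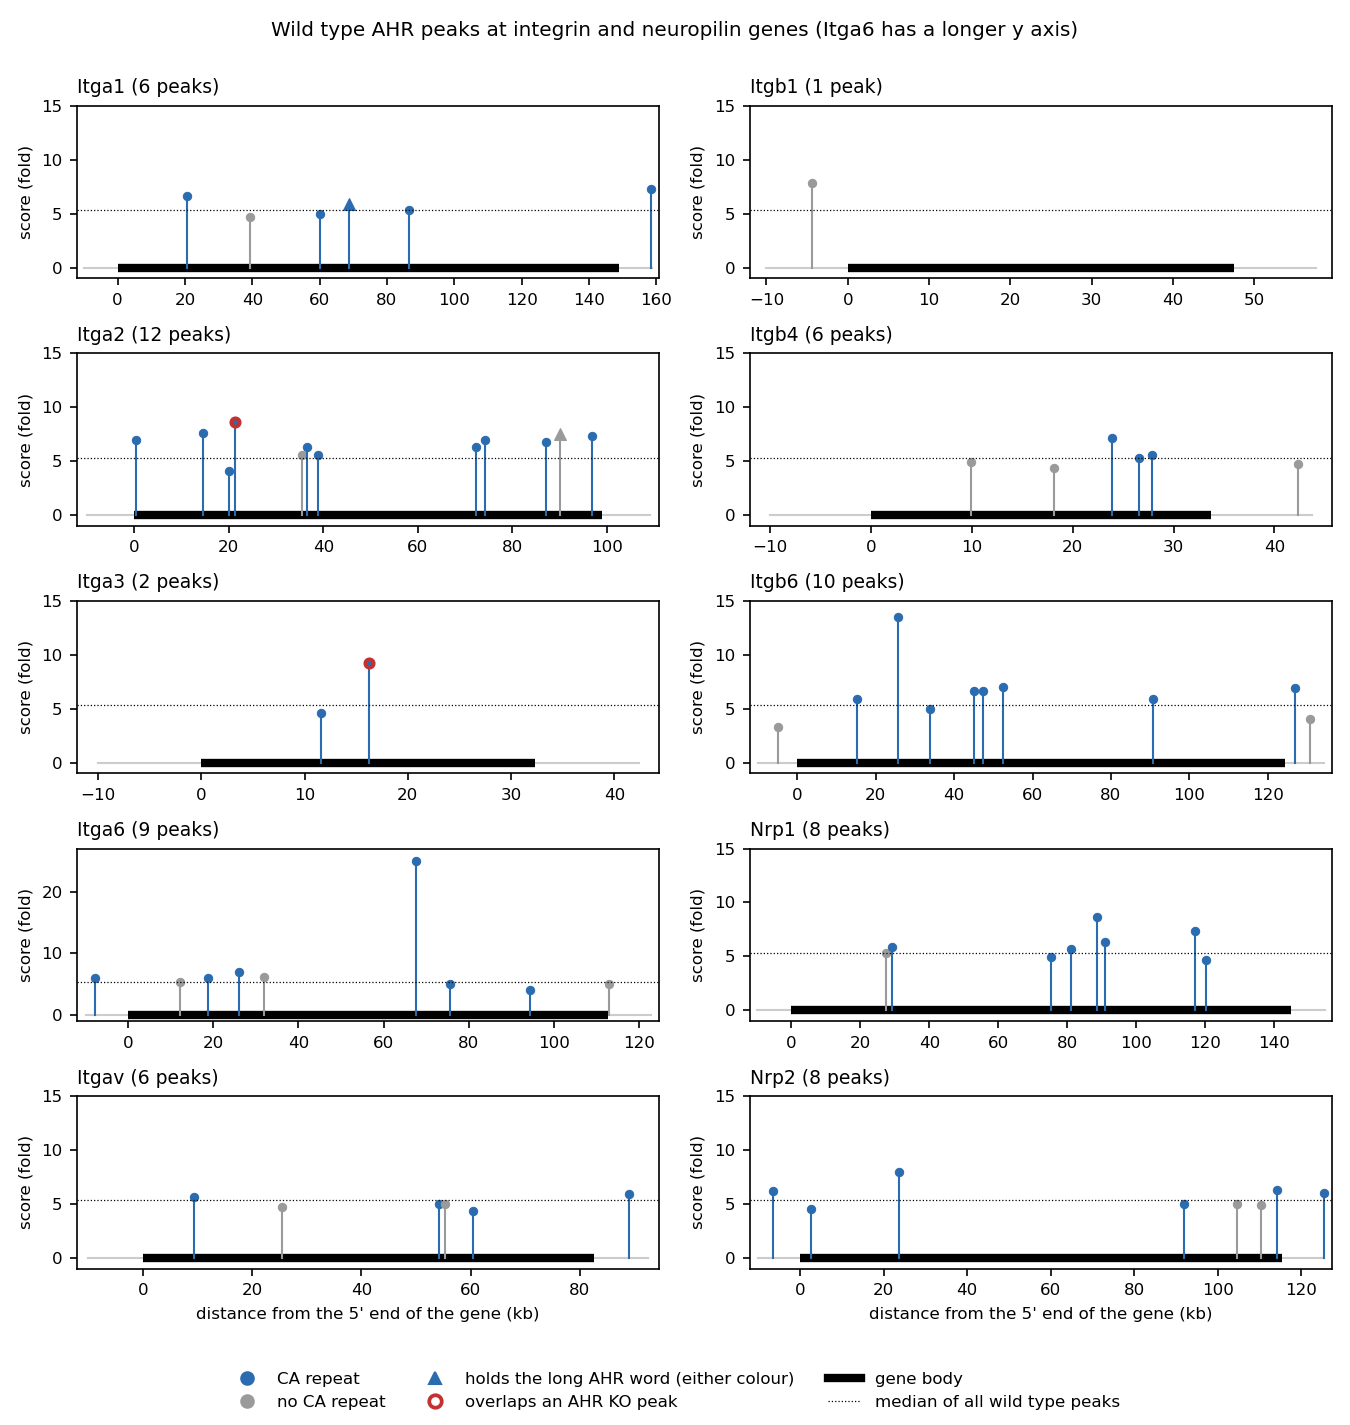
Each panel shows 1 gene with the distance from its 5′ end in kb on the x axis and the peak score (fold enrichment) on the y axis, with the gene body as a black bar, each of the 68 wild type peaks as a stem, CA repeats in blue, other windows in grey, TNGCGTG as a triangle and overlap with an AHR KO peak as a red ring. Itga2 has the most stems (12), with none between 38836 and 72203 bp, the stem of Itga6 at 24.9 stands above the others, Itgb1 has 1 stem upstream of the gene, and the red rings are at Itga2 and Itga3.

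All 10 members had a wild type peak, as did 78.3% of 21938 protein-coding genes and 94.4% of the 7219 genes at least as long as Itga3, the shortest member at 32.3 kb. The members are long genes, with a median of 106 kb against 17.4 kb over all protein-coding genes, so peaks were also counted per 100 kb of gene body and flanks. The median density was 5.88 peaks per 100 kb at the members, 4.00 over all protein-coding genes (quartiles 1.73 and 6.60) and 4.27 over the long genes. Itgb4 (11.2 per 100 kb) and Itga2 (10.1) had densities at the 98.0 and 96.6 percentiles of the long genes. Itgb6 (6.93), Itga6 (6.78), Nrp2 (5.91), Itgav (5.85) and Nrp1 (4.86) were above the median of the long genes, and Itga3 (3.82), Itga1 (3.55) and Itgb1 (1.48) were below it.

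**Figure D2:**
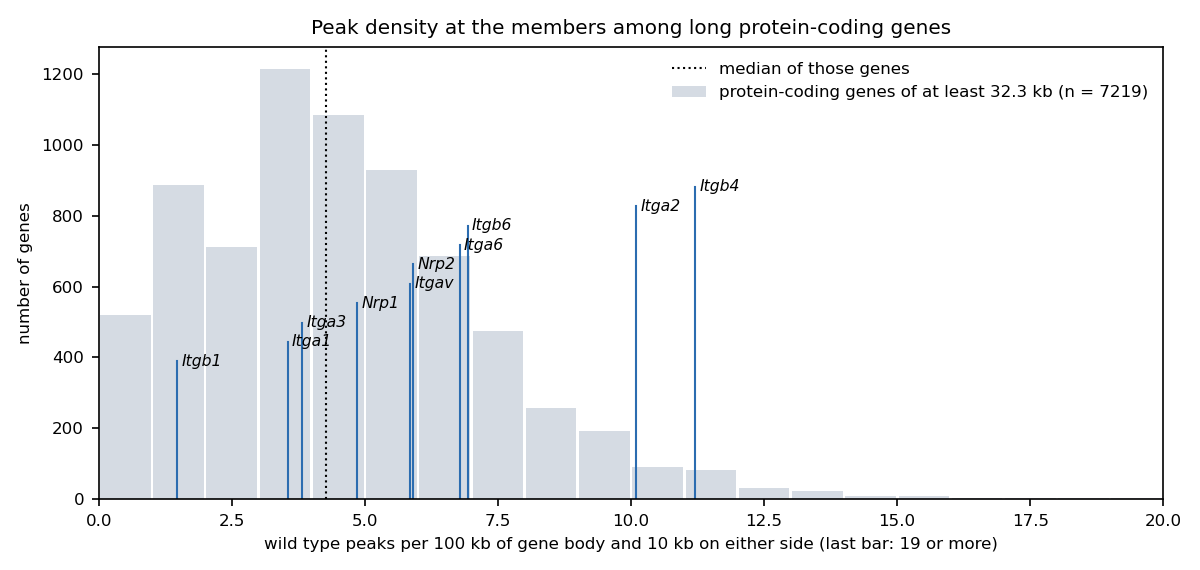
Bars count protein-coding genes of at least 32.3 kb by wild type peaks per 100 kb (x axis), blue lines mark the 10 members, and the dotted line is the median of those genes, the height of a blue line having no meaning. Itga2 and Itgb4 lie in the right tail at 10.1 and 11.2 per 100 kb, and Itgb1 lies on the left at 1.48.

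The score deposited for each peak is a fold enrichment, in which the number of ChIP fragments over the peak, with 1 added, is divided by the number expected there from background, also with 1 added. At the members it ran from 3.31 to 24.9 with a median of 5.90 (quartiles 4.98 and 6.95), against a median of 5.32 over the whole list (quartiles 4.54 and 5.98). Of the 68 peaks, 41 were above the list median and 13 (19.1%) were in its top 10.0%, that is, at 7.14 or more, while 2 had a score of at least 10. The best peak of each member had a median score of 8.31, against 6.31 over the protein-coding genes with a peak and 6.95 over the long genes. A best score tends to rise with the number of peaks, and neither set was matched to the members in length or number of peaks. The 31 peaks whose scores were whole multiples of 0.332 stood over the genome-wide background of 2.01 fragments, from which pileups of 12 to 74 fragments (median 17) could be read.

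**Figure D3:**
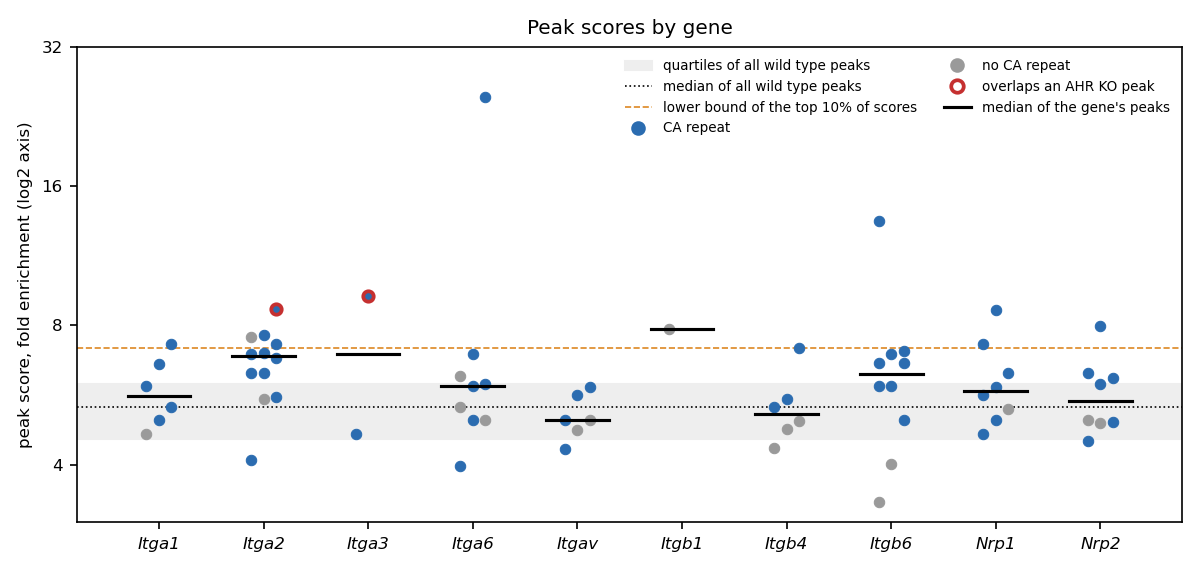
Peak scores (fold enrichment, log2 axis) are plotted for each gene, with 1 point for each of the 68 wild type peaks, blue for CA repeats, grey for others, a red ring for overlap with an AHR KO peak, a short black line for the gene's median, a grey band for the quartiles of all wild type peaks (4.54 to 5.98), a dotted line for their median and a dashed line for the top 10% of scores. The medians of Itgb1 (7.87), Itga3 (6.95), Itga2 (6.88) and Itgb6 (6.28) are above the band, the points of Itgav lie within 4.32 to 5.89, and single points of Itga6 (24.9) and Itgb6 (13.5) stand above the remaining ones.

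The collagen receptor subunits Itga2 and Itga1 lie next to each other on chromosome 13 in the same orientation and held 18 of the 68 peaks (median score 6.46). Itga2 (chr13:114833081-114932100, minus strand) had 12 peaks, all inside the gene, and of these 11 were above the list median and 4 were in the top 10% of scores. Going from the 5′ end into intron 1, peak 1 had its midpoint 412 bp from the gene start (score 6.95), peak 2 lay at 14499 bp (7.64), peak 3 at 20129 bp (4.10) and peak 4 at 21414 bp (8.68). Peak 4 was the highest of the gene, at rank 3428 of the whole list, and peak 3, within the same stretch of intron, was the lowest. In intron 2, peaks 5, 6 and 7 lay at 35433, 36589 and 38836 bp with scores of 5.55, 6.31 and 5.59. Towards the 3′ end, peak 8 (6.31, intron 16) and peak 9 (6.98, intron 17) lay at 72203 and 74106 bp, peak 10 (6.81, intron 26) and peak 11 (7.54, intron 27) at 87049 and 90016 bp, and peak 12 (7.31) at 96716 bp in the 3′ UTR of exon 30. The longest stretch of the gene without a peak was that between peaks 7 and 8.

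CA repeats were found in 10 of the 12 Itga2 windows, and soft-masked bases, the lower-case bases of the genome that mark repeats, made up 30.5% to 100% of a window. The AHR core was in 6 of the 12 windows, those of peaks 2, 3, 4, 5, 9 and 11. In peak 5 there were 13 cores, all inside 1 alternating tract of 85 bp with the copies mostly end to end, and the window held 20 CpG dinucleotides and 2 copies of the CA unit (this peak was singled out after its values were seen). The TNGCGTG of peak 11 lay 93.5 bp from the midpoint with no GGAATG within 1 kb. GGAATG was in none of the 12 Itga2 windows, and 9 of the 12 peaks had it within 1 kb of the midpoint, the nearest 258 bp away. Over all wild type peaks 70.0% had GGAATG within 1 kb.

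Itga1 (chr13:114953096-115101964, minus strand), whose product is the other collagen-binding alpha subunit, had 6 peaks, 5 in introns and 1 downstream. The highest, peak 6 (chr13:114943436-114943690, score 7.31), lay 158401 bp from the 5′ end of Itga1 in the stretch between the genes, and its nearer edge was 11335 bp upstream of the Itga2 start, just beyond the 10 kb used for Itga2. In intron 1, peak 1 (6.61) lay at 20567 bp and peak 2 (4.65) at 39398 bp, and both, like peak 3 in intron 2 (4.98, 60005 bp), also overlapped the gene Gm49395. Peak 4 (5.92, intron 3, 68748 bp) held the other TNGCGTG of the members, 42.5 bp from the midpoint and outside the TG repeat beside it, with the nearest GGAATG 212 bp from it, and also an AP-1 word. Peak 5 (5.32, intron 7) lay at 86644 bp. All but peak 2, which was fully masked with no CA unit, were CA repeats.
Itga1 peak 4: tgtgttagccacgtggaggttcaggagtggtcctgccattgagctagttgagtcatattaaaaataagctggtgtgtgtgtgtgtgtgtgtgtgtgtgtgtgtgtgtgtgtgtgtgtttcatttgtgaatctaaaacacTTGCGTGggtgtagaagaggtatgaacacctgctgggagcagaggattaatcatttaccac
In this window of Itga1 peak 4 (chr13:115033116-115033315) the TG repeat of 46 bp ends before the TNGCGTG, shown in capitals because it was 1 of only 2 among the 68 windows.

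Itgb1 (chr8:128685654-128733200, plus strand), the beta subunit shared by the collagen receptors and by many other integrins, had 1 peak, the fewest of the members. It lay upstream at a distance of -4410 bp from the start, with a score of 7.87 (rank 7090), and no peak lay inside the gene. Its window was fully masked, was no CA repeat and held none of the words.

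The laminin receptor subunits Itga3, Itga6 and Itgb4 held 17 peaks (median score 5.32). Itga6 (chr2:71745616-71858416, plus strand) had 9 peaks, among them the highest of all members. Peak 6, at 67698 bp in intron 1 of the main transcript, had a score of 24.9, rank 26 of the 123652 peaks, with a pileup of 74 fragments. The other 8 peaks of Itga6 had scores from 3.96 to 6.95, so peak 6 stood apart within its own gene. Peak 1 lay upstream, at -7792 bp (5.98), in the lincRNA gene Gm13647. In introns of transcripts that start before the main one, peaks 2, 3, 4 and 5 lay at 12101, 18844, 25959 and 31939 bp with scores of 5.32, 5.92, 6.95 and 6.21. Peaks 7 (4.98, intron 4) and 8 (3.96, intron 13) followed at 75602 and 94323 bp, and peak 9 (4.98) lay just downstream of the gene at 112967 bp.

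The window of Itga6 peak 6 (chr2:71813214-71813413) is printed as the strongest site of the members, and that of peak 1 (chr2:71737724-71737923) as the only one with both an AHR core and GGAATG.
Itga6 peak 6: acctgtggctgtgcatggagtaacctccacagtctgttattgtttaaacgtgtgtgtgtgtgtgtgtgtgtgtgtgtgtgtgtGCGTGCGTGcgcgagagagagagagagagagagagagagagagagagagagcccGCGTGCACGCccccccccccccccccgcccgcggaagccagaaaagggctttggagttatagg
Itga6 peak 1: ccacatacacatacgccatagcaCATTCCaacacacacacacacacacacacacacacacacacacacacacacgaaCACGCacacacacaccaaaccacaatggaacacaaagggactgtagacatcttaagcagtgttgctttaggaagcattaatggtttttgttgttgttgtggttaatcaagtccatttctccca
Peak 6 held 4 AHR cores, 2 at the end of a TG repeat and 2 side by side on opposite strands after a run of GA, with 11 CpG dinucleotides and a GC content of 58.5%. In peak 1 the GGAATG, on the minus strand, lay 53.5 bp from the core, and the core lay within a CA repeat. Cores were also found in Itga6 peak 7 (3 copies, all in the repeat) and GGAATG in Itga6 peak 4. CA repeats made up 6 of the 9 windows, and the widest peak of the members, peak 5 at 857 bp, was fully masked without any CA unit.

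Itga3 (chr11:95044474-95076801, minus strand), the shortest member, had 2 peaks, both in CA repeats and without any of the words. Peak 1 (4.65) lay at 11566 bp in intron 4. Peak 2 (9.25, rank 2481) lay at 16194 bp in intron 7, was 765 bp wide and overlapped a peak of the AHR KO list.
Itga3 peak 2: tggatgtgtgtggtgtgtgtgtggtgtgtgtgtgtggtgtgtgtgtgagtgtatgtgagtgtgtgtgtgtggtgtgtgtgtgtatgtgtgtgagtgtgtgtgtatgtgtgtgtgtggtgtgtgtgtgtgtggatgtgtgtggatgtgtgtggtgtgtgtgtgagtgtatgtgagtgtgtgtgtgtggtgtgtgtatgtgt
The window of Itga3 peak 2 (chr11:95060507-95060706) is given beside Itga2 peak 4 because these were the member sites found in both genotypes. With 20 copies of the CA unit it held the most of any member window, and it was fully masked.

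Itgb4 (chr11:115974709-116008412, plus strand), the hemidesmosome beta subunit, had 6 peaks in and around 33.7 kb. The highest, peak 3 (chr11:115998318-115998793, score 7.14), lay at 23847 bp in intron 27, at the lower bound of the top 10% of scores. Peaks 1 (4.97, intron 11), 2 (4.34, intron 23), 4 (5.32, intron 30) and 5 (5.54, intron 30) lay at 9913, 18112, 26601 and 27807 bp, and peak 6 (4.77) lay downstream at 42362 bp. Peak 2 (chr11:115992657-115992985) had its midpoint just before the start of an internal transcript of Itgb4 (a distance of -111 bp) and overlapped the lincRNA gene B230344G16Rik, and it was fully masked. All 6 windows were masked over at least 84.5% of their bases, 3 were CA repeats, and peak 5 held the longest alternating tract of the members at 96 bp. An AHR core was found in peak 4 only, inside the repeat.

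The subunits of the alpha v beta 6 receptor held 16 peaks (median score 5.77). Itgb6 (chr2:60598292-60722643, minus strand), the beta subunit that is restricted to epithelia, had 10 peaks. Peak 3, at 25732 bp in an intron of another transcript, had the second highest score of the members (13.5, rank 225). Peak 1 lay upstream at -4914 bp and had the lowest score of the members (3.31), and peaks 2 and 4 lay at 15209 bp (5.92) and 33747 bp (4.98), peaks 2 to 6 all being in introns of another transcript. Peaks 5 and 6 had the same score (6.65, at 45158 and 47297 bp) and peak 7 followed at 52418 bp in intron 2 (7.06). Peak 8 (5.92) lay at 90681 bp in intron 8, and peaks 9 (6.95) and 10 (4.02) lay downstream at 127014 and 130656 bp. Peaks 1 and 10 were the lowest and were the 2 of the 10 that were not CA repeats.
Itgb6 peak 3: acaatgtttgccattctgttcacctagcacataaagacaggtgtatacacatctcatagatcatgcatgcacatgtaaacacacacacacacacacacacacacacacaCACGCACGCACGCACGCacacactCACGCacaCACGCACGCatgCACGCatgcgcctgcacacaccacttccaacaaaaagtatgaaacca
This window of Itgb6 peak 3 (chr2:60696811-60697010) is shown since it held all of the AHR cores found at Itgb6, 8 in number. All 8 were on the minus strand and inside the CA repeat, where they read CACGC on the strand printed.

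Itgav (chr2:83724397-83806916, plus strand), the alpha subunit that pairs with beta 6 and with other beta subunits, had 6 peaks and the lowest best score of the members. Peak 6 (chr2:83813225-83813425, score 5.89), downstream at 88928 bp within the neighbouring gene Fam171b, was the highest. Peaks 1 (5.65, intron 1), 2 (4.76, intron 3), 3 (4.98, intron 13), 4 (4.98, intron 14) and 5 (4.32, intron 16) lay at 9313, 25453, 54162, 55395 and 60469 bp. The AHR core was found once each in peaks 1 and 6, outside the repeat in peak 1 and inside it in peak 6, and 4 of the 6 windows were CA repeats.

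The neuropilins held 16 peaks (median score 5.77). Nrp2 (chr1:62703285-62818695, plus strand), a co-receptor for class 3 semaphorins and VEGF-C, had 8 peaks. The highest was peak 3 (7.97, rank 5719), at 23675 bp in intron 2, a CA-rich window printed above that had no AHR core. Around the start, peak 1 (6.15) lay upstream at -6411 bp and peak 2 (4.49) at 2662 bp in intron 1, a window with 13 CpG dinucleotides. The remaining peaks were towards the 3′ end, with peaks 4 (4.96) and 5 (4.98) in intron 15 at 91959 and 104650 bp, peak 6 (4.93) in intron 16 at 110503 bp, peak 7 (6.31) in the 3′ UTR of exon 17 at 114328 bp and peak 8 (5.98) downstream at 125378 bp, in the lincRNA gene Gm4208. An AHR core was found in peaks 4 and 7, once each and inside the repeat. As at Itga2, no Nrp2 window held GGAATG, while 7 of the 8 peaks had it within 1 kb of the midpoint, the nearest 211 bp away. CA repeats made up 6 of the 8 windows.

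Nrp1 (chr8:128358604-128503363, plus strand), the paralogue that also binds VEGF-A, had 8 peaks, all in introns. The highest was peak 5 (chr8:128446971-128447276, score 8.64, rank 3524, 25 fragments) at 88520 bp in intron 6, a fully masked CA repeat. Peaks 1 (5.28) and 2 (5.89) in intron 2 lay at 27284 and 29164 bp, peak 3 (4.98, intron 5) at 75267 bp, and peaks 4 (5.65) and 6 (6.31) in intron 6 at 81078 and 90816 bp. Peaks 7 (7.31, intron 9) and 8 (4.65, intron 10) lay at 117083 and 120352 bp. GGAATG was found in the windows of peaks 1 and 4, in peak 4 just outside the called peak, and AHR cores in peak 2 (1 copy) and peak 6 (3 copies, 2 inside the repeat), and no window held both. All 8 peaks had GGAATG within 1 kb of the midpoint, and over all members 52 of 68 (76.5%) did.

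A CA repeat (3 or more non-overlapping copies of CACACA, or of TGTGTG, in the window) was found in 51 of the 68 member windows (75%, 95% Wilson interval 63.6 to 83.8) and in 57.3% of all wild type windows. Of 65 windows 2 kb to one side of the member peaks, 3.08% were CA repeats. At least 50% of the bases were soft-masked in 51 member windows (75%, 63.6 to 83.8), against 86.0% of all wild type windows and 20.0% of the side windows of the members. Under 25% masking was found in 0 of 68 member windows, which allows a share of up to 4.41%, and in 0.454% of all wild type windows. The lowest masking at a member was 30.5% (Itga2 peak 12 and Nrp1 peak 2), and 18 windows were fully masked, 11 of them without a CA repeat. The median masked share was 74.5% at the members and 86.5% over the list, and the median GC content was 46.0% in both. Median scores were 5.98 in the 51 CA repeats and 4.98 in the other 17 member windows, beside 5.65 and 4.65 over the whole list.

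The AHR core GCGTG was found in 18 of 68 member windows (26.5%, 17.4 to 38.0), in 17.7% of all wild type windows and in 9.23% of the side windows of the members. These 18 windows belonged to 8 genes, Itga3 and Itgb1 having none. The windows held 48 cores, of which 40 (83.3%) lay inside a stretch of at least 12 bp of alternating pyrimidine and purine, as in TG and CG repeats, against 70.3% of the cores in all wild type windows. Of the 40, Itga2 peak 5 held 13 and Itgb6 peak 3 held 8. Cores of the same repeat are not independent, so this share depends much on these windows. In 11 windows all cores lay in such a stretch, and in 5 none did. TNGCGTG was found in 2 of 68 windows (2.94%, 0.810 to 10.1), beside 2.84% of all wild type windows and 3.08% of the side windows. Both copies lay outside the alternating stretches.

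**Figure D4:**
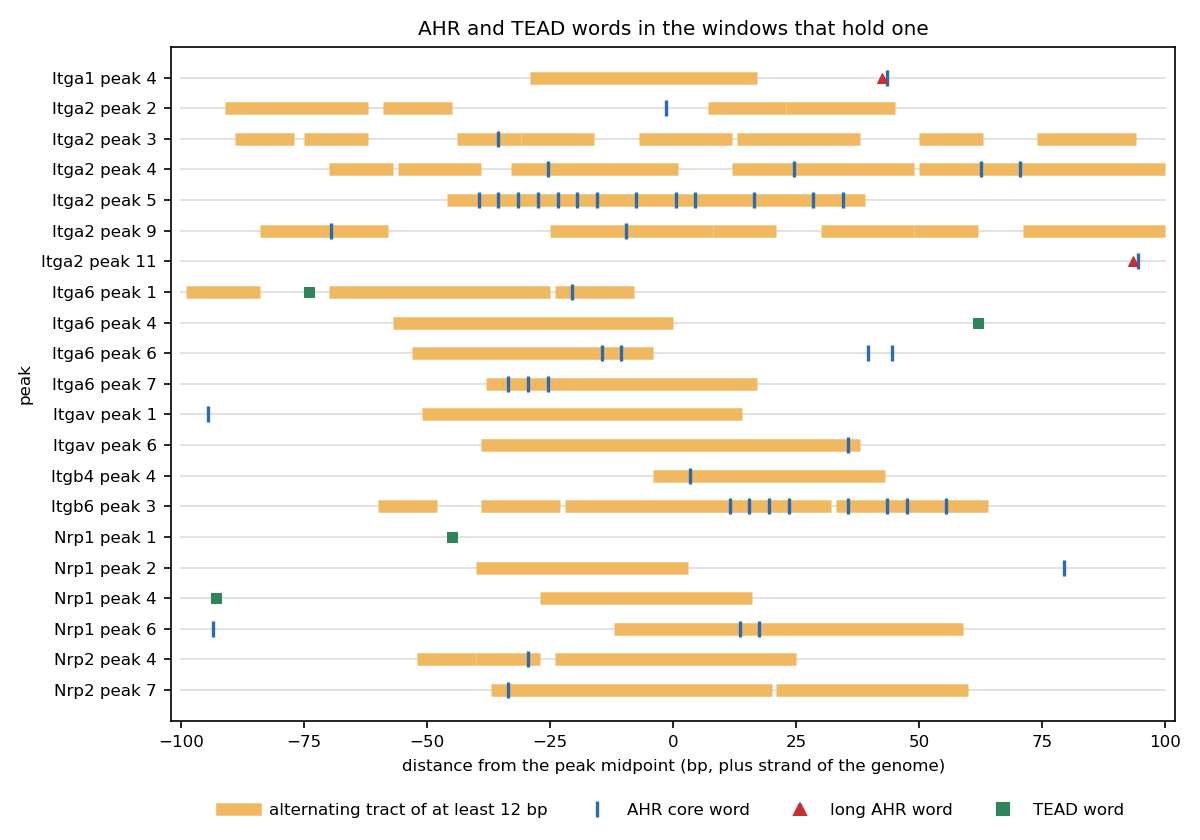
Each row is 1 of the 21 member windows with an AHR or TEAD word, with the distance from the peak midpoint in bp on the x axis, orange bars for alternating pyrimidine-purine tracts of at least 12 bp, blue ticks for the AHR core, red triangles for TNGCGTG and green squares for GGAATG. Most ticks lie on orange bars (40 of 48), with 13 on 1 bar at Itga2 peak 5, while both triangles lie off the bars.

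GGAATG was found in 4 of 68 windows (5.88%, 2.31 to 14.2), those of Itga6 peaks 1 and 4 and Nrp1 peaks 1 and 4, against 7.24% of all wild type windows and 7.69% of the side windows. With the longer word GGAATGT the share of the members was 2.94%. TNGCGTG and GGAATG were in the same window at 0 of 68 peaks, which allows a share of up to 4.41%, and at 0.302% of all wild type peaks. Core and GGAATG were together in 1 window (1.47%, 0.260 to 7.87), that of Itga6 peak 1, against 0.994%. Of the 2 TNGCGTG at the members, 1 had GGAATG within 1 kb, as did 78.9% of those over all wild type windows. An AP-1 word (TGAGTCA or TGACTCA) was in 2 windows (2.94%, 0.810 to 10.1), of Itga1 peak 4 and Itga2 peak 6, against 1.28%. For the core, the long AHR word, the TEAD word and the AP-1 word, the share over the whole list lay within the interval of the members.

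**Figure D5:**
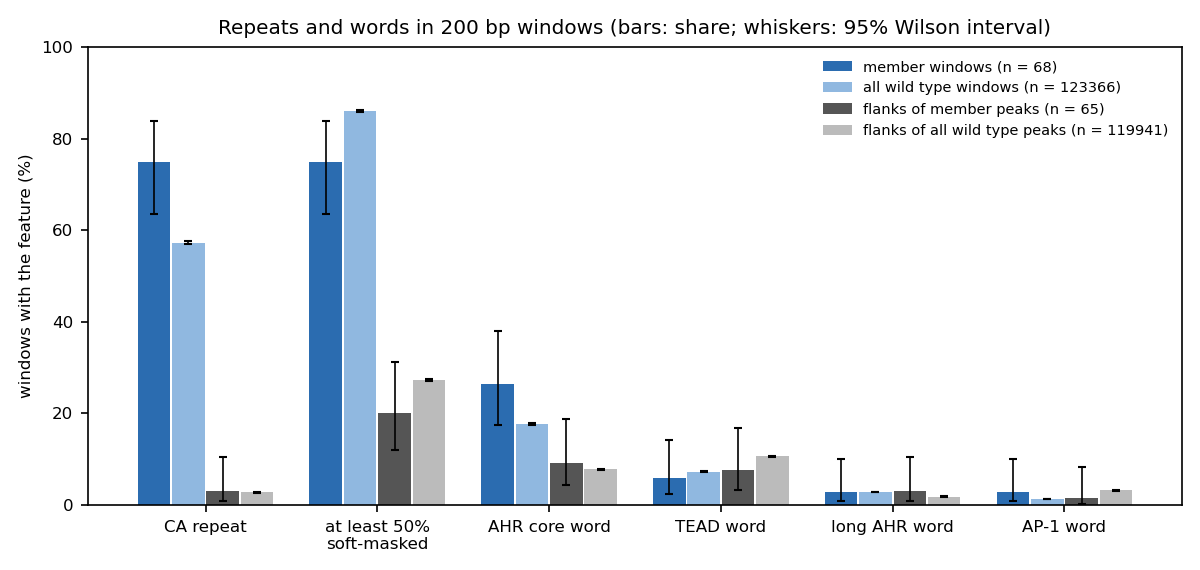
Bars give the percentage of 200 bp windows with each feature and whiskers the 95% Wilson interval, for member windows (n = 68), all wild type windows (n = 123366) and the windows 2 kb to one side of each. CA repeats were found in 75% of member windows and 3.08% of their side windows, and masking of at least 50% in 75% and 20.0%, whereas the bars for the TEAD, long AHR and AP-1 words are below 11% in all 4 sets.

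The AHR KO list holds the peaks called in AHR KO organoids. Antibody signal without AHR and mapping in repeats cannot be told apart in it. It held a peak at 2 of the 10 members, Itga2 and Itga3, against 4.47% of protein-coding genes and 8.96% of the long genes. The Itga2 KO peak (chr13:114910421-114910751, score 7.04, rank 749 of 1931) shared 243 bp with Itga2 peak 4, and the Itga3 KO peak (chr11:95060375-95061035, score 7.48, rank 617) shared 615 bp with Itga3 peak 2. These wild type peaks were the highest of their genes, and both KO peaks lay on CA repeats, masked over 88.5% and 100% of the window, with the core in that of Itga2. Thus 2 of 68 member peaks (2.94%, 0.810 to 10.1) overlapped a KO peak, against 1.46% of all wild type peaks, and 66 did not, those of Nrp2 and the highest peaks of Itga6 and Itgb6 among them.

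The lists differed in the background read from their scores, which bears on these 66. The step between KO scores was 0.777, which gives 0.287 background fragments against 2.01 in wild type. Equal scores in the lists therefore do not mean equal numbers of fragments, and no result here rests on comparing scores between lists. At the KO background, the wild type scores of the 68 peaks would correspond to a median of 6.60 fragments, and for 10 of them to fewer than 5, the lowest pileup read from the KO list. For these 10 the absence of a KO peak cannot be told apart from too few fragments in the KO library. The values were 31.1 fragments for Itga6 peak 6 and 16.3 for Itgb6 peak 3, neither of which had a KO peak, and 10.9 or fewer for the other members. Since the lowest pileup called is not a level at which every site would be found, this limit also bears on peaks somewhat above 5 fragments. With 1 KO library the absence of a peak has no replicate check at any site.

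Other genes of the same pathways, listed beside the members, were counted by the same rule. Of 19 other integrin subunits, 18 had a wild type peak, with a median density of 6.59 per 100 kb and a highest score of 11.6 at Itgam, the alpha subunit of a leukocyte integrin, while Itga2b had none and a KO peak lay at Itga9. Of 15 matrix ligands of integrins 11 had one (median density 2.75, highest score 15.3 at the collagen gene Col4a1), Col1a2, Fn1, Lama5 and Lamb2 having none, and KO peaks lay at Col4a2, Lama1 and Lamb3. Among 19 ligands and co-receptors of neuropilins 17 had one (median density 4.57, highest score 14.3 at the semaphorin receptor gene Plxna2, where a KO peak lay too), with none at Plxna3 and Plxnd1. Among 12 focal adhesion genes 10 had one (median density 3.09, highest score 10.6 at the kinase gene Src, which also had a KO peak), with none at Ilk and Zyx. By list, in the order given, TNGCGTG was in 1 of 112 windows (Itga8), 0 of 64, 2 of 122 (Plxna4 and Kdr) and 1 of 56 (Src). Peaks within 1 kb of a transcript start of their gene numbered 4, 1, 8 and 5. Sox9, a transcription factor of stem and progenitor cells, which the study considered together with Itga2 and Nrp2, had 3 peaks with a best score of 14.9, and 1 of its 3 windows held TNGCGTG together with GGAATG, a pair found in no member window. The pair was also in 1 window of the neuropilin ligands and co-receptors, at Kdr, and in none of the other lists above. The core with GGAATG was in 1, 1, 2 and 3 windows of those lists in the same order. The matrix ligand window was that of the Col4a1 peak at 15.3.

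At the edge of the counting rule, the member peak farthest from its gene was Nrp2 peak 8, 9877 bp outside the gene body (score 5.98), and the nearest peak left out lay 10416 bp from Itgb1 (score 5.58).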

How the data were processed

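AHR ChIP-seq was carried out by the authors on 4 wild type cultures and on AHR KO organoids, with inputs. Per the labels and methods, the submitters' processing notes name BWA 0.7.15, Picard 2.1.1, MACS2 2.1.1 and HOMER 4.8, with the mm10 genome. The authors deposited 1 peak list per genotype, with a score that from its values is a ratio (fold enrichment over background), whole multiples being recognised within 0.002. How reads mapping to several places were handled is not given in the sources used here, which bears on peaks in repeats. Library depths were not analysed here. Starts were read as 0-based and printed with 1 added. No columns of other samples were present.

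Genes were taken from GENCODE M21, promoters from RefSeq, and sequence from GRCm38, which left out 286 wild type peaks on other sequences from the shares over all windows. Distances run from the 5′ end of the gene to the peak midpoint, and peaks are numbered from the 5′ side. Tables were made with Python 3.11.15, numpy 2.4.6 and pandas 2.3.3, and the functions were tested on simulated data. All members are named with every peak. Described with coordinates were the highest peak of each member, those overlapping a KO peak, within 1 kb of a start, with TNGCGTG, or with the core and GGAATG, except that the coordinates and sequence of the Itgb1 peak are not reported here. Lists of related genes are given by counts and extremes, with genes named that had no peak, a KO peak or TNGCGTG. Their peaks near a start, or with the core and GGAATG, are counted and named only in part. The members and lists were chosen with earlier results of these data known, and the comparison with long genes, the alternating tracts, the share of peaks in gene bodies, promoter overlap and GGAATG within 1 kb were added after the data were seen. Peaks of a list are not replicates, so shares stand beside those over all peaks without a test. Wilson intervals, and the limit of 3 counts for a count of 0, cover counting error only.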

Additional observations from a re-analysis of the deposited data

How the results depend on the processing

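In all, 12 results were recomputed under 52 alternatives, of which 42 moved them by at most 1.5 times or within their interval. The results are counts, shares and a density without a direction, so a reversal was not possible. Counting 50 kb on either side gave 107 peaks, the top 10% of scores 13 and scores of at least the AHR KO median 18, against 68, and these score limits gave 0.983 and 1.49 peaks per 100 kb against 5.88. The AHR KO median was used only as a cut-off for wild type scores. It stands on another background, so it marks no equal level of signal. A 400 bp window gave GCGTG in 39.7% against 26.5%, and the core with GGAATG was in 1 window against 0 for TNGCGTG with GGAATG. At least 75% of bases were masked in 50% of windows. Within 5 kb of a start there were 12 peaks, and within 1 kb of the 5′ end of the gene 1, against 2. Each follows by construction from a wider, looser or stricter definition. Itgb1 lost its peak at 0 and 2 kb on either side, and Itgav among the top 10% of scores and above the AHR KO median.

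No paired analysis was possible because each genotype has a single peak list. For the same reason leaving out each culture was not run. The AHR KO list rests on 1 library with a lower background read from its scores (0.287 fragments against 2.01), and the number of windows (68) limits the rarer words.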
